A study of Mus musculus with 6 samples.

Results

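Fibroblast growth factors (FGFs) are secreted signals, and the genes described here cover 6 of them (Fgf4, Fgf15, Fgf17, Fgf2, Fgf7 and Fgf10), 2 of their receptors (Fgfr1 and Fgfr2) and 2 Sprouty inhibitors of the pathway (Spry2 and Spry4). They were chosen by gene symbol in the platform annotation, which gave 16 of 25697 probes and 10 of 16593 genes. Each of 6 cell cultures gave total RNA for 1 Illumina mouse-8 V2 BeadChip. Lines #7.1 and #7.2, the FAHgc-iPS cells, are subclones of line #7 that carry a lentiviral FAH cDNA, with EGFP, under an SFFV promoter. FAH-/--iPS cell lines #4 and #7 were derived from C57BL/6 FAH-/- fetal fibroblasts with retroviral Oct4, Sox2, Klf4 and c-Myc and grown on feeder fibroblasts. OG2 ES cells carry an Oct4-GFP reporter and no FAH-/- genotype is labelled for them, and the FAH-/- MEFs are embryonic fibroblasts of mixed sex. The 4 iPS cell lines and the MEFs share the FAH-/- genotype. Of the lines, 3 (#7, #7.1 and #7.2) share 1 derivation, so that they are separate cultures but not independently reprogrammed.

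FGFs bind receptor tyrosine kinases together with heparan sulfate and act largely through Ras and the kinase ERK. Mouse ES cells secrete Fgf4, and the ERK signal it sets off allows them to leave the undifferentiated state. In connective tissue, fibroblasts and mesenchyme supply Fgf7 and Fgf10, which signal to the epithelial form of Fgfr2. Sprouty proteins are induced by FGF signaling and dampen it in turn.

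All values below are log2 normalized signals unless another scale is named. A probe was counted as above background where its exported signal exceeded the array's background by 2.326 SDs of the background noise, and between 11773 (ES cells) and 12483 (MEFs) probes did so per array. All 10 pluripotency markers measured, Pou5f1 and Nanog among them, were above background in each iPS cell line and in ES cells. In the MEFs all 11 fibroblast markers measured were above background. These fibroblast markers also gave 7 or 8 genes above background in each iPS cell line and 8 in ES cells, with a summed exported signal over background of 1.89% to 2.89% of that in MEFs in the iPS cell lines and 1.51% in ES cells. Among the markers of other cell types, those of primitive endoderm summed to 6.68% to 9.34% of MEFs in the lines and 6.9% in ES cells. Of the 8 measured, 3 were above background in MEFs, with Dab2 at 10.72 there, and 3 to 5 in the lines. Those of primed epiblast and streak summed to 2040% to 2640% in the lines and 1440% in ES cells. The MEF sum was only 46.44 there, with 1 of 7 above background. These percentages follow the MEF sums and do not measure how much of a cell type was present.

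The promoters of the ES cell ligand Fgf4 and of the fibroblast ligands Fgf7 and Fgf10 are printed because these genes stand for the 2 kinds of ligand compared, although only Fgf7 among them was called against MEFs. The sequences are the 250 bases before the annotated start in RefSeq, build GRCm38.p6, all on the + strand, 5′ to 3′, at chr7:144861136-144861385 for Fgf4, chr2:126034408-126034657 for Fgf7 and chr13:118714449-118714698 for Fgf10. Capitals mark matches to 3 motifs searched on both strands. The first is the GC box, read as GGGCGG here and as CCGCCC where it lies on the opposite strand. The next is the CCAAT box, which reads ATTGG when it lies on the opposite strand. The last is the TATA box, for which the letters TATAAA were searched on both strands and, as a further form, the palindrome TATATA.
Fgf4: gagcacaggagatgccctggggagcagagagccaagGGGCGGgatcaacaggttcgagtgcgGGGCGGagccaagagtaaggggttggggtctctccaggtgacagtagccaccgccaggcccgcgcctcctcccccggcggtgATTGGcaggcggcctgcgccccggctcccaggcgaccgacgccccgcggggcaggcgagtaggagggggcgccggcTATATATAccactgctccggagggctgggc
Fgf7: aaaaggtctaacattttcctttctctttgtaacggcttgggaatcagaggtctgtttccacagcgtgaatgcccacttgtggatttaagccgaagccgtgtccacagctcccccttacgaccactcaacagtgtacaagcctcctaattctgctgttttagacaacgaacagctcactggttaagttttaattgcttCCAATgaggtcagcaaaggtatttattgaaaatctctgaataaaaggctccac
Fgf10: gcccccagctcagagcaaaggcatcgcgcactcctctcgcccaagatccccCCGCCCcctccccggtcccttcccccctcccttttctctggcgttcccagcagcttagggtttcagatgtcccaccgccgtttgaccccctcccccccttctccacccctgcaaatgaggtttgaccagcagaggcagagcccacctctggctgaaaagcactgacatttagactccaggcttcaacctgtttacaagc

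Of the 10 genes, 6 had an entry in the promoter table. The Fgf4 stretch was 71.2% G and C and held 2 GC boxes, 1 CCAAT box and 2 overlapping TATA box matches that begin 30 and 28 bases before the start. The Fgf7 stretch was 43.6% G and C and held 1 CCAAT box, 53 bases before the start, with no match to the other motifs. The Fgf10 stretch was 61.2% G and C and held 1 GC box and no match to the other motifs. Over 32851 mouse promoters of this length the median was 52.4% G and C, with a GC box in 32.7%, a CCAAT box in 33.8% and a TATA box in 15.6%, so that each motif is common and a match is a description only. The enhancer through which Oct4 and Sox2 are known to act on Fgf4 lies downstream, in the last exon, outside the printed stretch.

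The genes that set the pluripotent cells apart from the MEFs were Fgf17, Spry4 and Fgf7 (see the plot of each gene by array). Fgf17 and Spry4 were higher in iPS cell lines than in MEFs, by at least 7.03-fold and by 2.52-fold. Fgf7 was 11.2-fold lower in iPS cell lines than in MEFs. The same 3 genes differed between ES cells and MEFs, in the same directions, but those comparisons share the MEF array. No gene of the set was called between iPS cell lines and ES cells, where only 0.983% of all genes tested were. Against MEFs 26% of all genes tested were called in iPS cell lines and 26.7% in ES cells.

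**Figure D1:**
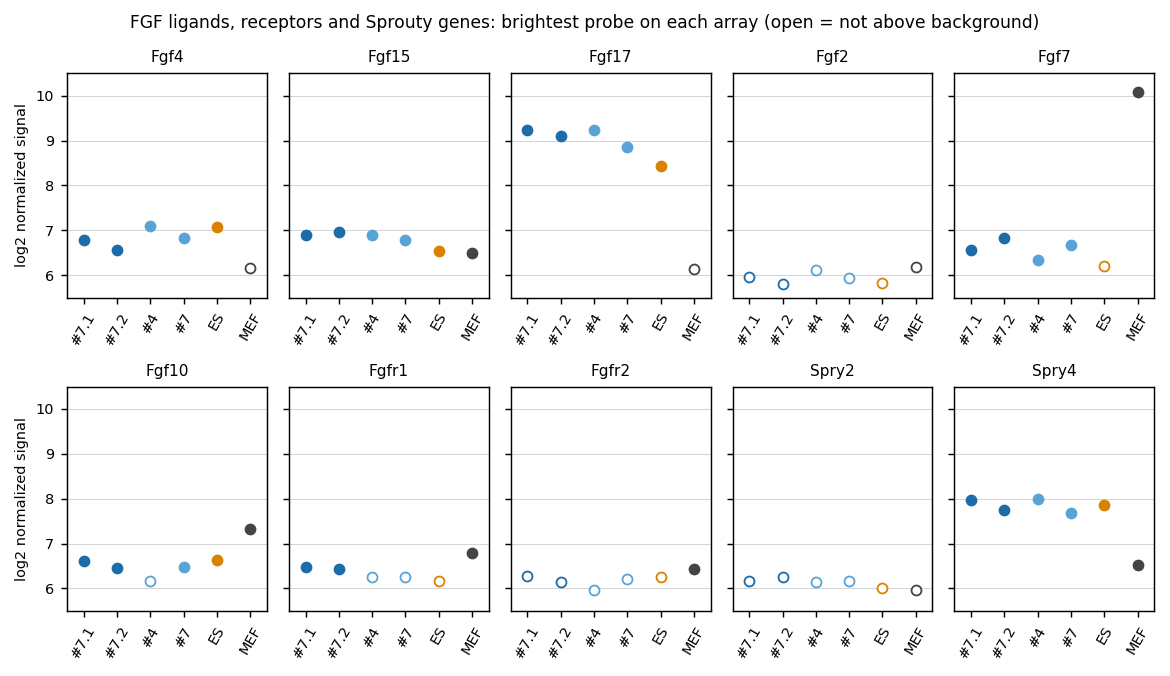
Log2 normalized signal (vertical axis) of the brightest probe of each of the 10 genes on the 6 arrays (horizontal axis: iPS cell lines #7.1, #7.2, #4 and #7, OG2 ES cells, FAH-/- MEFs), 1 point per array, filled where above background and open where not. Fgf17 sits between 8.85 and 9.24 in the iPS cell lines, at 8.43 in ES cells and at 6.14 in MEFs, while Fgf7 reaches 10.08 in MEFs against 6.33 to 6.82 in the lines.

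Genes were compared with limma over the 10681 genes above background on at least 1 array. A call needed a change of at least 2-fold together with an adjusted p (Benjamini-Hochberg) under 0.05. Fgf2 and Spry2 were above background on 0 of 6 arrays and were not tested. Of the 8 genes tested against MEFs, 2 were called higher in the iPS cell lines, 1 lower and 5 neither way. Over all genes tested 26% were called in this comparison, 13.1% higher and 12.9% lower, and the 3 of 8 are read against that share. Under scaling to a common median in place of quantile normalization the split over all genes moved to 1050 higher and 1846 lower, against 1400 and 1380. The median difference of the 8 genes was 0.06, beside 0.03 over all genes tested. Where a group had no array above background, a fold is set against the lowest signal above background on its arrays and written as at least N-fold.

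Among the ligands, Fgf4 lay little above background. Its probe gave 6.79 and 6.56 in lines #7.1 and #7.2, 7.09 and 6.82 in lines #4 and #7, 7.07 in ES cells and 6.17 in MEFs, where alone it was not above background. All 4 iPS cell lines and the ES cells lay above the MEFs. The iPS cell lines exceeded the MEFs by 0.65 ± 0.18 (SE; adjusted p = 0.0093 in the limma fit), at least 1.43-fold. The fitted difference, 1.57-fold, is under the 2-fold limit of a call. ES cells exceeded MEFs by 0.91 ± 0.23 (adjusted p = 0.0061), at least 1.71-fold, and the fitted 1.87-fold is again under that limit. The iPS cell lines differed from ES cells by -0.26, with a 95% interval of -0.65 to 0.14 (adjusted p = 0.50), and 3 of the 4 lines lay below the ES cells.

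The size of the Fgf4 difference changed with the treatment of dim signals. With a smaller normexp offset of 16 the differences from MEFs became 1.04 (adjusted p = 0.012) for the iPS cell lines and 1.41 (adjusted p = 0.010) for ES cells, both called. With the deposited background-subtracted values plus 50 the difference between ES cells and MEFs was 1.23 (adjusted p = 0.0063), also called.

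Fgf15, the neighbour of Fgf4 on chromosome 7 and in the adult mouse an intestinal hormone of bile acid control, was above background on all 6 arrays. It gave 6.90 and 6.95 in lines #7.1 and #7.2, 6.90 and 6.79 in lines #4 and #7, 6.54 in ES cells and 6.49 in MEFs. The 4 lines lay within 0.16 of each other, and all were above both lone arrays. The difference from MEFs was 0.40 (adjusted p = 0.027) and that from ES cells 0.35 (95% interval 0.04 to 0.65, adjusted p = 0.20), neither of them called. Between ES cells and MEFs it was 0.06, and -0.06 with median scaling.

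Fgf17, a ligand of the Fgf8 subfamily that patterns the midbrain and hindbrain, was high in all pluripotent cultures. Its brighter probe gave 9.24 and 9.10 in lines #7.1 and #7.2, 9.24 and 8.85 in lines #4 and #7, 8.43 in ES cells and 6.14 in MEFs, where it was not above background. As exported, before any normalization, these signals were 642, 599, 692 and 412 in the lines, 316 in ES cells and 115 in MEFs, where the background was 109. The iPS cell lines therefore lay above the ES cells without overlap, and both lay far above the MEFs. Against MEFs the difference was 2.97 ± 0.17 (SE) for the lines (adjusted p = 4.3e-08) and 2.29 ± 0.21 for ES cells (adjusted p = 3.9e-06), at least 7.03-fold and at least 4.40-fold. The lines exceeded the ES cells by 0.68 (95% interval 0.31 to 1.05, adjusted p = 0.046), or 1.60-fold, under the 2-fold limit. The adjusted p of this difference ran from 0.028 to 0.35 over the alternatives and was above 0.05 in 6 of 13, including without line #7.1 (0.095) and without line #7.2 (0.12).

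A second Fgf17 probe was dimmer, with 7.00, 6.55 and 6.84 in lines #7.1, #7.2 and #4, above background, and 6.31 in line #7, 6.22 in ES cells and 5.98 in MEFs, not above background. The values not above background have no order among themselves. With every probe in 1 fit its difference between lines and MEFs was 0.69 (adjusted p = 0.018), at least 1.30-fold, and was not called. The 2 probes of Fgf17 therefore disagree on the call.

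Fgf2, the factor used to sustain human pluripotent cells and rodent epiblast stem cells in culture, lay between 5.79 and 6.10 in the iPS cell lines, at 5.83 in ES cells and at 6.19 in MEFs, below the background limit throughout. A difference in Fgf2 was thus not measurable on these arrays.

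Fgf7, also called keratinocyte growth factor, was the fibroblast ligand called in these data. It gave 6.56 and 6.82 in lines #7.1 and #7.2, 6.33 and 6.67 in lines #4 and #7, 6.20 in ES cells, where it was not above background, and 10.08 in MEFs. Every pluripotent culture lay more than 3 log2 units below the MEFs. The difference was -3.48 ± 0.18 (SE; adjusted p = 1.9e-08) for iPS cell lines against MEFs and -3.88 ± 0.23 (adjusted p = 9.5e-08), at least 13.2-fold lower, for ES cells against MEFs. In RNA of whole cultures, fewer cells of a type and less RNA per cell cannot be told apart.

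All 4 iPS cell lines had Fgf7 above background and above the ES cells, by 0.39 on average (95% interval 0.0025 to 0.79, adjusted p = 0.27), at least 1.18-fold and not called. As exported signal over background, Fgf7 stood at 2.07% and 3.58% of the MEF value in lines #7.1 and #7.2, at 1.23% and 2.1% in lines #4 and #7, and below the background limit of 0.971% in ES cells. On the array of line #4 that limit was 1.18%, so Fgf7 was only just above background there. The summed fibroblast markers stood at 1.89%, 2.89%, 2.57% and 2.2% in the same 4 lines and at 1.51% in ES cells. Their part in the Fgf7 signal was not tested.

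Fgf10, the mesenchymal ligand needed for limb and lung outgrowth, was also highest in MEFs. Its brightest probe gave 6.62 and 6.46 in lines #7.1 and #7.2, 6.16 and 6.47 in lines #4 and #7, 6.63 in ES cells and 7.33 in MEFs, and only line #4 was not above background. All 5 pluripotent cultures lay below the MEFs. The 4 lines lay below the ES cells, line #7.1 only just and line #4 the furthest. The lines differed from MEFs by -0.91 ± 0.17 (SE; adjusted p = 7.5e-04), 1.88-fold, which was not called. As exported signal over background, Fgf10 stood at 22.6%, 16.5% and 13.2% of the MEF value in lines #7.1, #7.2 and #7, below the background limit of 11.3% in line #4 and at 18.5% in ES cells, against 1.51% to 2.89% for the summed fibroblast markers. ES cells differed from MEFs by -0.71 (adjusted p = 0.018) and the lines from ES cells by -0.20 (95% interval -0.58 to 0.18, adjusted p = 0.61).

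The Fgf10 difference from MEFs lies close to the 2-fold limit and crosses it under several treatments of the data. It was -1.16 with median scaling, -1.30 with a normexp offset of 16, -1.02 with lines #4 and #7 alone and -1.14 with the deposited background-subtracted values plus 50, each called. A second Fgf10 probe gave 6.72, 6.33, 6.30 and 6.32 in lines #7.1, #7.2, #4 and #7, 6.38 in ES cells and 7.55 in MEFs. It was not above background in lines #4 and #7. In the fit of every probe it was called lower, with a difference of -1.14 (adjusted p = 1.5e-04) for the lines and of -1.17 (adjusted p = 9.8e-04) for ES cells against MEFs. The remaining Fgf10 probe was above background on 0 of 6 arrays.

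**Figure D2:**
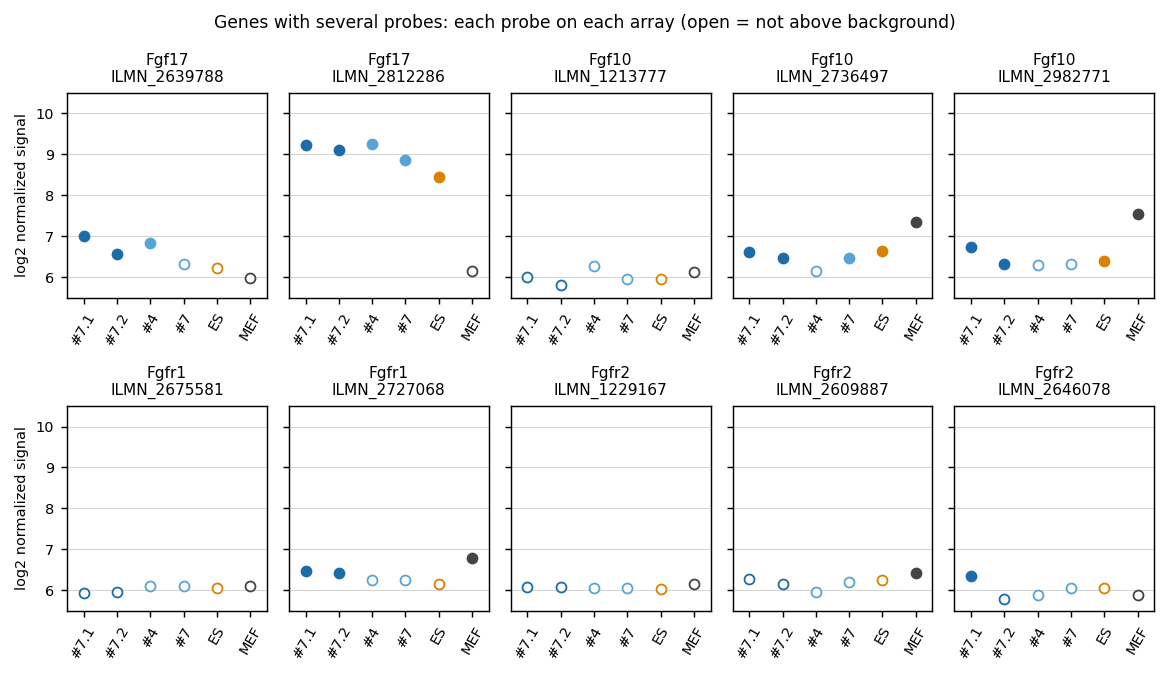
Log2 normalized signal (vertical axis) of each probe of the 4 genes with several probes on the 6 arrays (horizontal axis, iPS cell lines, then OG2 ES cells, then FAH-/- MEFs), filled where above background and open where not. The 2 brighter Fgf10 probes both peak in MEFs at 7.33 and 7.55, and the brighter Fgf17 probe lies above 8 in the pluripotent cultures.

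Both receptors lay close to background. Fgfr1, the main FGF receptor of fibroblasts and of mouse ES cells, gave 6.47 and 6.43 in lines #7.1 and #7.2, 6.25 in both line #4 and line #7, 6.16 in ES cells and 6.79 in MEFs with its brighter probe. It was above background in the first 2 lines and in MEFs. The lines differed from MEFs by -0.45 (adjusted p = 0.024) and ES cells from MEFs by -0.64 (adjusted p = 0.015), at least 1.36-fold lower, neither of them called. With the offset of 16 the second of these became -1.04 (adjusted p = 0.015), a call. The lines and ES cells differed by 0.19 (95% interval -0.14 to 0.52, adjusted p = 0.56). The other Fgfr1 probe was above background on 0 of 6 arrays.

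Fgfr2, whose splice forms distinguish epithelial from mesenchymal cells, has 3 probes. The brightest gave 5.97 to 6.28 in the iPS cell lines, 6.25 in ES cells and 6.43 in MEFs, and only the MEFs were above background. Fgfr2 entered the test through the MEF array alone. It was at least 1.08-fold lower in the lines than in MEFs (adjusted p = 0.15), not called, and between lines and ES cells, neither of them above background, a difference was not measurable. A second probe of the same annotated transcript was above background only in line #7.1, at 6.34, and a probe of another transcript on 0 of 6 arrays. Probe positions along the transcripts are not given in the sources used here, so the splice forms could not be told apart.

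Among the inhibitors, Spry4 followed the pluripotent cells. It gave 7.96 and 7.74 in lines #7.1 and #7.2, 7.98 and 7.69 in lines #4 and #7, 7.87 in ES cells and 6.51 in MEFs, above background on all 6 arrays. The 4 lines enclosed the ES cells, and all 5 pluripotent cultures lay above the MEFs. Against MEFs the difference was 1.33 ± 0.16 (SE) for the lines (adjusted p = 1.8e-05) and 1.35 ± 0.20 for ES cells (adjusted p = 1.5e-04), which corresponds to 2.52-fold and 2.56-fold. Between lines and ES cells it was -0.02 (95% interval -0.37 to 0.32, adjusted p = 0.96). Spry2 gave 6.15 to 6.26 in the lines, 6.01 in ES cells and 5.97 in MEFs, not above background anywhere.

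In the comparison of iPS cell lines with ES cells, 0 of 8 genes were called, and 3 (Fgf17, Fgf15 and Fgf7) had an unadjusted p under 0.05, each higher in the lines. Over all genes tested with limma 0.983% were called, 0.44% higher and 0.543% lower, and 1976 (18.5%) had an unadjusted p under 0.05. In the comparison of ES cells with MEFs, 2 of 8 genes were called higher and 1 lower, where over all genes 26.7% were called, 13.1% higher and 13.6% lower. With median scaling that split over all genes became 869 higher and 2099 lower, and the median over all genes moved to -0.12 from 0.03. For iPS cell lines against ES cells it became 68 higher and 40 lower, against 47 and 58. The comparison of ES cells with MEFs rests on 1 array against 1, with the spread taken from the iPS cell lines.

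**Figure D3:**
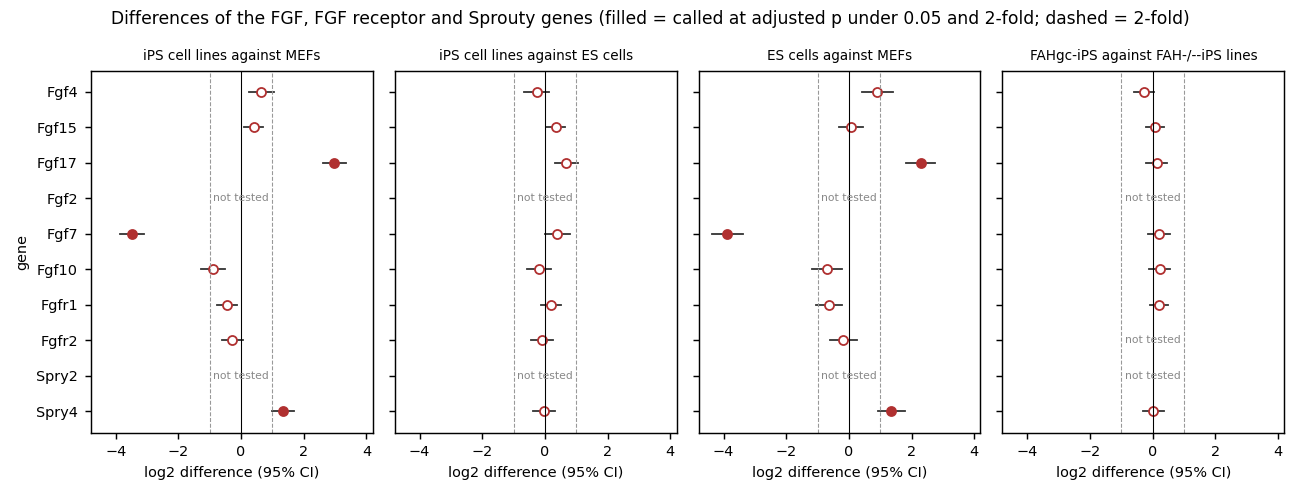
Log2 difference (horizontal axis, with its 95% interval as a bar) of each gene (vertical axis) in the 4 comparisons, filled where called and open where not, with dashed lines at 2-fold. Fgf17 at 2.97 and Spry4 at 1.33 stand to the right and Fgf7 at -3.48 to the left in iPS cell lines against MEFs. No gene is filled against ES cells or between FAHgc-iPS and FAH-/--iPS cell lines. Over all genes tested 26%, 0.983% and 0% were called in these 3 comparisons.

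Gene correction was not accompanied by a called difference in these genes. The FAHgc-iPS pair, #7.1 and #7.2, was compared with the FAH-/--iPS pair, #4 and #7, over 7 of the genes, as Fgfr2, like Fgf2 and Spry2, was not above background in the lines with its brightest probe. The differences ran from -0.28 (Fgf4) to 0.22 (Fgf10). Fgf4 averaged 6.68 in the FAHgc-iPS cell lines and 6.95 in the FAH-/--iPS cell lines (95% interval of the difference -0.61 to 0.05, adjusted p = 0.94). Fgfr1 averaged 6.45 and 6.25 with its brighter probe (adjusted p = 0.94). That probe was above background in the FAHgc-iPS cell lines only, at least 1.09-fold. In the limma fit of this comparison 0% of 9795 genes were called, 444 had an unadjusted p under 0.05, and of the 7 genes 0 did.

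Other genes of the pathway were read from 6 lists (see the plot of pathway lists). Against MEFs, the counts of each list are read beside the 13.1% called higher and 12.9% called lower over all genes, whose median difference was 0.03. Of 16 other FGF ligands measured, 8 were tested, and 3 were called higher in the iPS cell lines and 0 lower, with a median of 0.02. Fgf8, of the same subfamily as Fgf17, gave 8.05 and 8.03 in lines #7.1 and #7.2, 7.10 and 7.70 in lines #4 and #7, 6.84 in ES cells and 6.07 in MEFs. Its difference from MEFs was 1.65 (adjusted p = 3.7e-04), at least 2.68-fold, and all 4 lines lay above the ES cells as well, by 0.88 and not called. Fgf5, a marker of the primed epiblast, gave 7.61, 8.20, 6.68 and 8.12 in lines #7.1, #7.2, #4 and #7, 6.99 in ES cells and 6.47 in MEFs, so that line #4 lay below the ES cells and the other 3 lines above. The lines exceeded MEFs by 1.18 (adjusted p = 0.032). For Fgf22 they exceeded MEFs by 1.16 (adjusted p = 1.6e-04), at least 2.03-fold.

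Of 10 other receptors and cofactors, 5 were tested, with 1 called higher and 1 lower in iPS cell lines than in MEFs and a median of -0.59. Fgfbp1, a carrier that frees FGFs from the matrix, lay between 8.64 and 8.73 in the lines, at 9.19 in ES cells and at 6.17 in MEFs, a difference of 2.53 between lines and MEFs (adjusted p = 2.7e-08), at least 5.28-fold. Flrt2, a membrane protein that can bind FGF receptors, fell by 2.57 (adjusted p = 1.0e-07). It was above background in MEFs but in only 1 of the lines and not in ES cells, so this difference is largely set against background. Fgfr3 and Fgfr4 were above background on 0 of 6 arrays.

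Heparan sulfate genes, whose chains hold the ligand on its receptor, were the next list. Of 14 tested, the lines had 6 called lower than MEFs, where 12.9% of all genes were, and 0 higher, with a median difference of -0.79 beside 0.03 over all genes. The syndecans Sdc3 (-3.06, adjusted p = 8.0e-09) and Sdc2 (-2.34, adjusted p = 5.6e-08), the sulfatase Sulf1 (-2.34, adjusted p = 8.4e-08) and the glypican Gpc4 (-1.99, adjusted p = 6.5e-07) were the 4 furthest apart. The fibroblast markers move in the same direction, 10 of 11 called lower, and their part in these values was not tested.

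Downstream, 2 of 9 tested genes of the Ras-ERK cascade were called higher in the lines than in MEFs and 0 lower, beside 13.1% and 12.9% over all genes, with a median of 0.04. The docking protein Gab1 lay between 11.67 and 11.85 in the lines, at 11.78 in ES cells and at 8.65 in MEFs, a difference of 3.13 between lines and MEFs (adjusted p = 6.4e-09). Nras was higher by 1.15 (adjusted p = 2.0e-05).

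Of 9 other feedback inhibitors tested, 2 were called higher and 0 lower, beside 13.1% and 12.9% over all genes, and the median was -0.0014. The 2 were Dusp6 (1.64, adjusted p = 4.9e-06) and Dusp4 (1.40, adjusted p = 1.1e-04), both phosphatases that inactivate ERK. Dusp6 gave 10.87 and 10.74 in lines #7.1 and #7.2, 11.12 and 10.75 in lines #4 and #7, 10.37 in ES cells and 9.23 in MEFs. As with Spry4, all pluripotent cultures lay above the MEFs.

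Of 10 ERK target genes tested, 3 were called higher in the lines than in MEFs and 1 lower, beside 13.1% and 12.9% over all genes, with a median of 0.20. The ETS factors Etv5 and Etv4, common readouts of FGF signaling, were higher by 2.70 (adjusted p = 1.1e-07) and 2.18 (adjusted p = 7.2e-06). Fos was higher by 1.13 (adjusted p = 0.0066), whereas Ier3 fell by 1.01 (adjusted p = 1.7e-04). Etv4 and Etv5 rose in ES cells against MEFs too, by 2.21 and 2.32. Between iPS cell lines and ES cells 0 genes of any of the 6 pathway lists were called, where only 0.983% of all genes tested were.

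**Figure D4:**
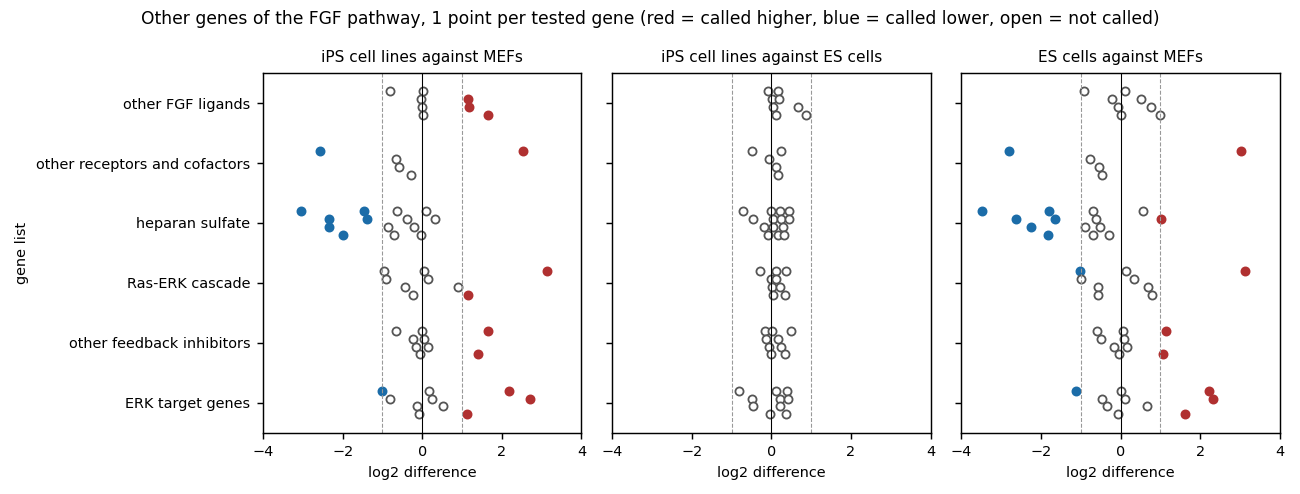
Log2 difference (horizontal axis) of each tested gene of 6 lists of the FGF pathway (vertical axis) in 3 comparisons, 1 point per gene, red where called higher, blue where called lower and open where not called, with dashed lines at 2-fold. Heparan sulfate genes hold 6 blue points in iPS cell lines against MEFs, and no point is filled in iPS cell lines against ES cells. Over all genes tested 12.9% were called lower against MEFs, and 0.983% either way against ES cells.

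The genes most like each member across the 6 arrays were found by the root mean square difference of log2 signals after removal of each gene's mean, among the 10680 other genes tested, for the 4 members that span more than 1 log2 unit. For Fgf17 these were Spink1 (0.109), Gart (0.149) and Rrp9 (0.179), and for Fgf7 they were Dkk3 (0.106), Usp18 (0.116) and Aebp1 (0.129). For Fgf10 they were H2bc7 (0.0471), Yipf1 (0.0528) and Pygb (0.0542), and for Spry4 Banf1 (0.0346), Setd6 (0.0573) and Dnajb6 (0.062). With 6 arrays, of which 1 sets most of the span, such likeness is a description of these arrays.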

How the data were processed

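For each sample the authors deposited the signal intensity of every probe as BeadStudio exported it, with no background subtracted. A further deposited table gives the authors' intensity on the linear scale after background subtraction and cubic spline normalization. No BeadStudio version is named in the labels or the methods. Normexp correction (offset 50), quantile normalization and log2 transformation were applied to the exported signals in limma 3.58.1 under R 4.3.3. Background on an array means the exported signal of probes to which the deposited table assigns 0. Background noise SDs ran from 5.27 to 7.53, and precision is limited by how few arrays there are. Gene symbols are those of the platform annotation, updated by gene ID through RefSeq for 23962 of 23978 named probes, and the probe with the highest mean signal stands for a gene. One limma model held the iPS cell lines, ES cells and MEFs, with 3 residual degrees of freedom, and another the FAHgc-iPS and FAH-/--iPS cell lines, with 2. In the first, MEFs and ES cells have a single array each and borrow the spread of the lines, so p-values reflect variation between these cultures alone. Every gene of the set is named with its probes, and from each list up to 4 called genes by size of change against MEFs and up to 2 against ES cells, with the 3 nearest patterns. The genes and lists were chosen with earlier results of these data known. Alternatives changed the scaling, offset, filter, probe choice, prior, call rule and lines used, or started from the deposited table.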

Additional observations from a re-analysis of the deposited data

Results flagged for a closer look

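Of 10 probes above background in at least 1 iPS cell line, 1 had a line far from the other 3. The second Fgf10 probe, ILMN_2982771, read 6.72 in line #7.1, against 6.30 to 6.33 in the other 3 lines, a gap of 0.936 of the range of the 4. In lines #4 and #7 this probe was not above background, so the closeness of the lower values is partly that of dim signals. The brightest Fgf10 probe did not set line #7.1 apart in this way, with 6.62 there and 6.16 to 6.47 in the others. Chance alone sets apart about 1 in 20 groups of this kind.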

How the results depend on the processing

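Fgf17, Spry4 and Fgf7 kept their direction and call against MEFs under all alternatives run, for iPS cell lines and for ES cells. For ES cells against MEFs, leaving out lines, dropping the filter, changing the prior or fitting every probe left the difference itself unchanged. Those alternatives could move only the adjusted p there. The fit of every probe was read through the brightest probe of each gene, and the second Fgf17 probe was not called in it. Against MEFs 5 genes were called in iPS cell lines with the offset of 16, against 3. On adjusted p alone 7 were called (4 higher, 3 lower). Over all 10681 genes tested, the offset of 16 gave 1794 higher and 1787 lower, against 1400 and 1380. Adjusted p alone called 5803 of them. The count called lower was 2 with median scaling, the offset of 16, lines #4 and #7 only or the deposited values plus 50, each time through Fgf10. Over all genes these 4 settings gave 1846, 1787, 1371 and 1539 lower, against 1380. For ES cells against MEFs 5 were called with the offset of 16 and 6 on adjusted p alone, 3 of them lower. With median scaling or the offset of 16, 2 were lower. Over all genes there, the offset of 16 gave 1826 higher and 1861 lower, against 1402 and 1455. Median scaling gave 2099 lower, and adjusted p alone called 5207 of 10681. Against ES cells, adjusted p alone called 1 gene, Fgf17, as 1 higher, beside 462 of 10681 over all genes. The adjusted p of Fgf17 was 0.13 with the offset of 16 and 0.17 with the mean of its probes. It was 0.10 with the deposited values plus 50 and 0.35 with lines #4 and #7 only. Reversed values were small: Spry4 between lines and ES cells was 0.10 with median scaling and -0.069 to 0.029 with single lines left out, and Fgf15 between ES cells and MEFs was -0.06 with median scaling. Between FAHgc-iPS and FAH-/--iPS cell lines, leaving out single lines gave -0.128 to 0.164 for Spry4 and -0.076 to 0.314 for Fgf17. Over all genes, leaving out line #7 gave 9 called higher and 20 lower there, leaving out line #7.1 gave 1 lower, and lines #4 and #7 alone gave 22 higher and 19 lower against ES cells, against 47 and 58. The causes were not tested. Slide as a block was not run, since the files used here name no slide. No paired analysis was run, since MEFs and ES cells have a single array each and both FAHgc-iPS cell lines come from line #7.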
